A study of Mus musculus with 9 samples.

Results

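The SLC30 genes encode the ZnT proteins, a family of zinc transporters. Most of them move zinc out of the cytosol, across the plasma membrane or into vesicles and secretory compartments. The SLC30 genes were taken as every listed gene whose symbol was Slc30a followed by a number. Of 15228 genes listed, 6 were SLC30 genes: Slc30a1, Slc30a4, Slc30a5, Slc30a6, Slc30a7 and Slc30a9. Slc30a3, the loader of synaptic vesicles, and Slc30a10, an exporter at the cell surface, were named for the family as well but were not analysed here, so 6 of 8 named genes have values. All 6 had a mean of at least 0.5 RPKM, the level set for testing. RPKM is a read number scaled by the exon length of the gene and the size of the library.

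RNA was sequenced from cells sorted by flow cytometry as retinal ganglion cells (RGCs) of wild-type C57BL/6J mice of both sexes, aged 6 to 8 weeks. Ctrl cells came from intact retinas, ONC cells from retinas 3 d after optic nerve crush with an intraocular injection of PBS as vehicle, and TPEN cells from retinas 3 d after the crush with an intraocular injection of 100 μM TPEN, a cell-permeable zinc chelator, given right after the injury. Each group had 3 libraries, and no source used here says whether these came from separate mice, so the p-values measure the spread between libraries, which may be technical. The comparisons ask whether crush, and chelation after crush, went with a change in the transcripts of zinc export and compartment loading. No source used here says that Ctrl retinas were injected. The comparisons with Ctrl therefore cannot tell crush from the injection.

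The libraries held 19946993 to 23109754 reads, as inferred from the RPKM values. The sort label was checked against marker genes. Nefl, a neurofilament gene of RGCs, ranked 153 of 15228 genes by mean RPKM, but Rbpms, Slc17a6 and Pou4f1 ranked 13805, 14020 and 14252, and 3 of 7 listed RGC markers had a mean under 0.5 RPKM. Summed over 6 markers, rod transcripts reached 18349 to 19200.7 RPKM in Ctrl, 16075.3 to 16303.5 in ONC and 17290.7 to 17413.9 in TPEN, against 327 to 337, 343 to 364 and 263 to 276 RPKM for the RGC markers. Nefl carried most of the latter sum, while Rbpms averaged 0.605 RPKM in Ctrl, 0.393 in ONC and 0.319 in TPEN, and Pou4f1 0.571, 0.183 and 0.241 RPKM. The mean was instead higher in ONC than in Ctrl for Slc17a6 (0.435 against 0.268 RPKM), Thy1 (5.35 against 4.74) and Sncg (23.3 against 19.9). The same held for Nefl (264.5 against 257.7) and Nefm (60.2 against 49.5). Of 4 RGC markers tested, limma called 2 higher and 0 lower in ONC against Ctrl, beside 18.7% of all genes. In TPEN against ONC it called 1 higher and 3 lower, beside 7.39%. The values below are therefore those of the sorted cell mixture, in which fewer cells of a type and less RNA per cell cannot be told apart. No listed marker was at 0 in all libraries. Microglia and macrophage markers summed to 2.23 to 3.29 RPKM in Ctrl, 23.6 to 24.5 in ONC and 11.9 to 12.7 in TPEN, and astrocyte markers to 4.49 to 5.27, 25.9 to 27.1 and 16.3 to 18.6 RPKM.

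Cells keep free zinc very low. Most ZnT proteins lower cytosolic zinc, ZIP proteins (the SLC39 genes) raise it, and metallothioneins bind what is left. The zinc-sensing factor MTF1 binds metal response elements, and Slc30a1 and the metallothionein genes Mt1 and Mt2 are its textbook targets. In neurons that release zinc, such as amacrine cells of the retina, ZnT3 fills synaptic vesicles with it.

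The promoters of Slc30a1 and Mt2 are shown because these genes share a known regulator yet differed in their values. The letters searched were TGCACNC and TGCGCNC, on both strands of 300 bases around each RefSeq start (250 bases before it and 50 after it, GRCm38.p6). Capitals mark the matches, none of which overlap in the sequences shown. The 250 bases before the start are printed for Slc30a1 (chr1:191906531-191906780, plus strand) and Mt2 (chr8:94172368-94172617, plus strand), 5′ to 3′ in the direction of the gene.
Slc30a1: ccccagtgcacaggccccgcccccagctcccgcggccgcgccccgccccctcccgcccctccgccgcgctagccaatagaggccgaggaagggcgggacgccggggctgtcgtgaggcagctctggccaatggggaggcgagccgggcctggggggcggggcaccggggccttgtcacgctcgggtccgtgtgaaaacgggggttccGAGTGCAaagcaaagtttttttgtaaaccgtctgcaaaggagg
Mt2: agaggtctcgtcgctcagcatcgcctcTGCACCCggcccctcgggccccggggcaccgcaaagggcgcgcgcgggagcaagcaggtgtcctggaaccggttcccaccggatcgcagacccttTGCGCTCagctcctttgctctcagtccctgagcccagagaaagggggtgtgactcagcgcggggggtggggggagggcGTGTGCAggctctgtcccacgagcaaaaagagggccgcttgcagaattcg

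The Slc30a1 window held 2 matches, of which the printed one starts 43 bases before the start and the other lies at base 30 past it, within these 19 bases (chr1:191906805-191906823).
Slc30a1 second match: cgggccGAGCGCAgtcgcc
The Mt2 window held 4 matches, 3 of them printed above. Slc30a4 (minus strand of chromosome 2) held 3 matches, beginning 228, 92 and 6 bases before its start, and Slc30a5 (minus strand of chromosome 13) held 1, beginning 48 bases before its start. These windows are shown with 6 bases on either side, in the direction of each gene (chr2:122702879-122702897, chr2:122702743-122702761, chr2:122702657-122702675 and chr13:100833463-100833481). All matches of the SLC30 genes lie on the strand opposite to the gene, so the capitals are the reverse complement of a motif.
Slc30a4 far match: ggctcaGAGCGCAcaagac
Slc30a4 middle match: cctcgcGGGCGCAcgcgcc
Slc30a4 near match: gcgggcGGGTGCAgtggct
Slc30a5 match: ccaccaGCGCGCAggcgca

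Promoters were found for all 6 SLC30 genes, and the windows of Slc30a6, Slc30a7 and Slc30a9 held no match. Of 32851 mouse promoters of the same length, 25.7% held at least 1 match, 7.11% at least 2, 1.97% at least 3 and 0.517% at least 4. These shares were not matched for CG (C followed by G), which TGCGCNC contains. The SLC30 windows held from 18 CG (Slc30a6) to 46 (Slc30a4) and that of Mt2 24, against a median of 7 for all promoters. A match describes letters and is not a measured binding site.

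Slc30a9, which encodes a mitochondrial zinc transporter, had the highest level of the family. It lies on the plus strand of chromosome 5 (chr5:67306955-67358443, GRCm38). Its level was 10.1, 10.2 and 10.1 RPKM in Ctrl libraries 1 to 3, 10.6, 10.8 and 10.4 RPKM in the ONC libraries, and 10.7, 10.9 and 11.1 RPKM in the TPEN libraries. All ONC and TPEN libraries were above all Ctrl libraries, by small margins, while ONC and TPEN overlapped. With 2521 to 3059 reads per library, it was also the gene with the most reads.

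Slc30a5 and Slc30a6, whose products form a heterodimer of the early secretory pathway that supplies zinc to enzymes such as alkaline phosphatase, had very different levels. Slc30a5 lies on the minus strand of chromosome 13 (chr13:100802649-100833427) and measured 9.15, 9.74 and 9.51 RPKM in Ctrl libraries 1 to 3, 10.1, 10.1 and 9.69 RPKM in the ONC libraries, and 9.53, 9.91 and 9.70 RPKM in the TPEN libraries. Slc30a6 lies on the plus strand of chromosome 17 (chr17:74395608-74424229) and measured 1.36, 1.28 and 1.45 RPKM in Ctrl libraries 1 to 3, 1.44, 1.64 and 1.36 RPKM in the ONC libraries, and 0.968, 1.20 and 1.39 RPKM in the TPEN libraries. The groups overlapped for both genes, and the lowest Slc30a6 value belonged to TPEN library 1. Slc30a6 had only 42 to 82 reads per library, so counting error alone gives a coefficient of variation of 12.5%. The ratio of Slc30a5 to Slc30a6 within a library was 6.99 ± 0.564 for Ctrl, 6.74 ± 0.530 for ONC and 8.36 ± 1.42 for TPEN (SD, n = 3).

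Slc30a7, whose product works as a homodimer in the same compartment, had the lowest level. It lies on the minus strand of chromosome 3 (chr3:115938973-116007406). Its level was 0.819, 0.751 and 0.699 RPKM in Ctrl libraries 1 to 3, 0.607, 0.615 and 0.689 RPKM in the ONC libraries, and 0.963, 0.664 and 0.658 RPKM in the TPEN libraries. The ONC libraries were all below the Ctrl libraries, by a narrow margin, and TPEN library 1 stood above the rest. The ratio of Slc30a5 to Slc30a7 was 12.6 ± 1.26 for Ctrl, 15.7 ± 1.42 for ONC and 13.2 ± 2.86 for TPEN (SD, n = 3). Slc30a7 shares 1165 exon bases with Gm6649 on the other strand, which was listed at a mean of 1.42 RPKM, so its reads are uncertain.

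Slc30a1 encodes ZnT1, the main exporter of the plasma membrane, and lies on the plus strand of chromosome 1 (chr1:191906767-191913247). It measured 4.51, 4.18 and 4.05 RPKM in Ctrl libraries 1 to 3, 4.86, 4.02 and 4.47 RPKM in the ONC libraries, and 4.96, 4.91 and 4.60 RPKM in the TPEN libraries. The Ctrl and ONC libraries overlapped, and so did ONC and TPEN, while all TPEN libraries were above all Ctrl libraries. Of its exon bases, 468 overlap 1700034H15Rik on the other strand, which had a mean of 1.25 RPKM, and no source used here says whether counting used strand.

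Slc30a4 encodes ZnT4, a transporter of endosomes and secretory vesicles known for loading zinc into milk, and lies on the minus strand of chromosome 2 (chr2:122681233-122702663). It measured 3.24, 3.32 and 3.02 RPKM in Ctrl libraries 1 to 3, 3.15, 3.03 and 3.29 RPKM in the ONC libraries, and 3.44, 3.51 and 3.57 RPKM in the TPEN libraries. The TPEN libraries lay above all the others.

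**Figure D1:**
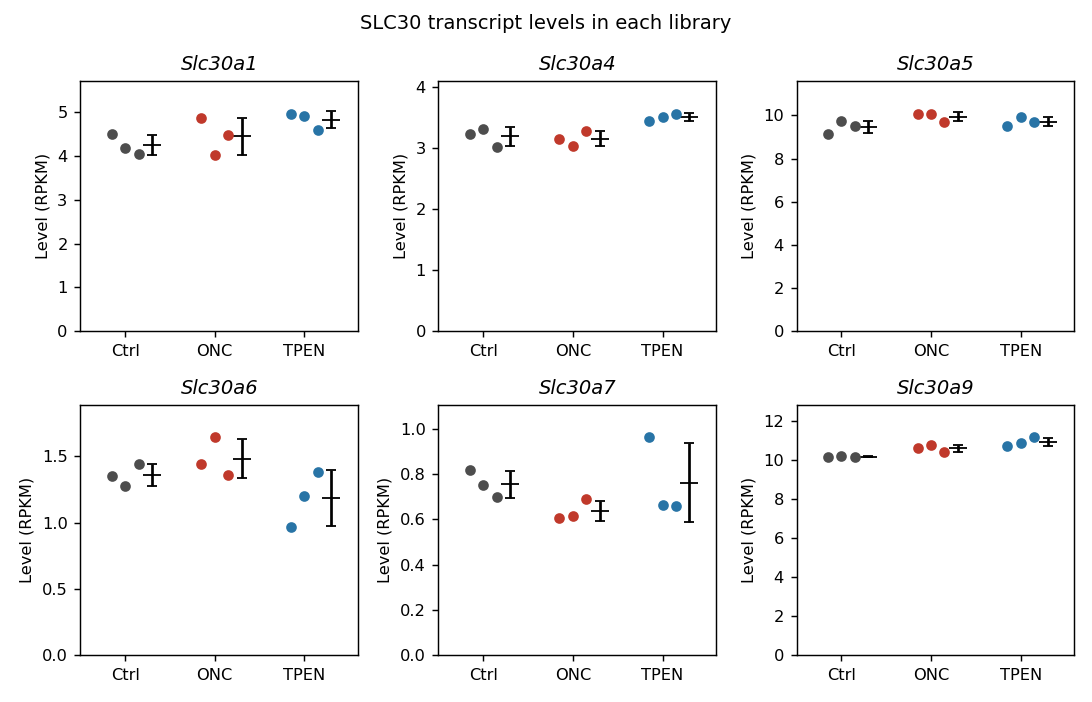
RPKM of each SLC30 gene (vertical axes, each from 0) in the 3 Ctrl, 3 ONC and 3 TPEN libraries, with points for libraries and black bars for the mean and SD. The groups lie close together in every panel; relative to the mean, the widest spread within a group is that of Slc30a7 (22.9%) and Slc30a6 (17.7%) in TPEN.

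The order of levels per exon length, Slc30a9, Slc30a5, Slc30a1, Slc30a4, Slc30a6 and Slc30a7, was found in 9 of 9 libraries. No pair of neighbours overlapped over the 9 libraries, but the gaps were unequal. The lowest Slc30a9 value (10.1236 RPKM) was close to the highest Slc30a5 value (10.0836 RPKM), and the lowest Slc30a6 value (0.968 RPKM) to the highest Slc30a7 value (0.963 RPKM). The mean of Slc30a5 was 2.15 times that of Slc30a1, and the mean of Slc30a4 was 2.45 times that of Slc30a6. Among all 15228 genes, the ranks by mean RPKM ran from 4140 for Slc30a9 and 4388 for Slc30a5 to 11387 for Slc30a6 and 12873 for Slc30a7.

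The level depends on the exon length used. The deposited length of Slc30a9, 12374 bases, is that of all its listed exons together. GENCODE M21 gives the gene 8 transcripts, of which the principal one has 18 exons and 5711 bases. With that length, the mean of Slc30a9 over the 9 libraries was 22.9 RPKM (21.9 to 24.1) in place of 10.6 RPKM. For Slc30a7, 9020 bases in place of 11116 gave a mean of 0.885 RPKM in place of 0.718 RPKM. The lengths of Slc30a1, Slc30a4, Slc30a5 and Slc30a6 changed little, and the order of the 6 means stayed as it was. In TPEN library 1, however, Slc30a7 (1.19 RPKM) then lay above Slc30a6 (0.978 RPKM), so that this pair kept its order in 8 of 9 libraries. Slc30a1 has 2 exons, the fewest of the family, against 7 to 18 in the principal transcripts of the others.

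The make-up of the summed SLC30 level was much the same in each library. Slc30a9 held 34.5% to 35.9% of the summed RPKM, Slc30a5 31.1% to 33.4%, Slc30a1 13.3% to 16.2% and Slc30a4 10.1% to 11.5%. Slc30a6 held 3.16% to 5.45% and Slc30a7 1.97% to 3.15%. The sum itself averaged 29.2 ± 0.308 RPKM for Ctrl, 30.3 ± 0.438 RPKM for ONC and 30.9 ± 0.279 RPKM for TPEN (SD, n = 3). Ctrl ranged from 28.9 to 29.5 RPKM and did not overlap ONC (29.9 to 30.7 RPKM) or TPEN (30.6 to 31.1 RPKM), while ONC and TPEN overlapped. As a percent of the RPKM of all genes, the sum was 0.00898 to 0.00904 in Ctrl, 0.00897 to 0.00925 in ONC and 0.00922 to 0.00934 in TPEN, and on this scale Ctrl and ONC overlapped.

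**Figure D2:**
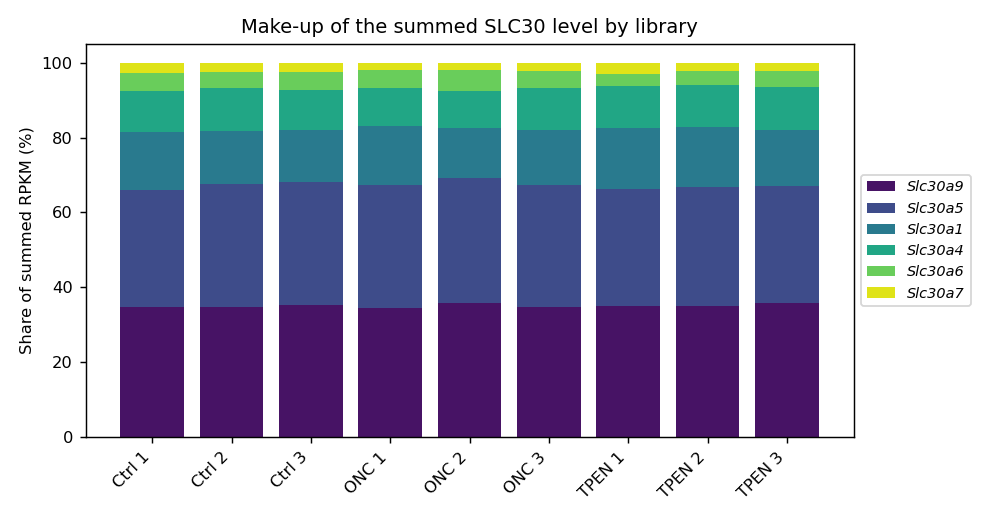
Share of the summed SLC30 RPKM (percent, vertical axis from 0 to 100) held by each of the 6 genes in each library. Slc30a9 and Slc30a5 take the 2 largest shares in all 9 libraries, and no share moves by more than a few percentage points.

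Crush with vehicle injection went with no called change in any SLC30 gene. In ONC/Ctrl, 0 of 6 passed an adjusted p of 0.05 in limma, 0 passed at an unadjusted p of 0.05, and 0 were called by voom on read numbers. Of the 13566 genes tested, limma called 18.7%, voom called 3214, and 31.6% had an unadjusted p under 0.05 in limma. The change of Slc30a1 was 0.06 on the log2(RPKM + 0.1) scale (standard error 0.08, 95% interval -0.12 to 0.25, limma adjusted p = 0.655), or 1.04-fold. Without ONC library 1 it was -0.0016. Slc30a9 changed by 0.06 (interval -0.03 to 0.15, limma adjusted p = 0.354) and Slc30a5 by 0.07 (-0.03 to 0.17, limma adjusted p = 0.322), the narrowest intervals of the family. Slc30a4 changed by -0.02 (-0.17 to 0.14, limma adjusted p = 0.910). The 2 genes with the lowest levels had the widest intervals: 0.12 for Slc30a6 (-0.20 to 0.43, limma adjusted p = 0.626; 0.04 without ONC library 2) and -0.22 for Slc30a7 (-0.58 to 0.15, limma adjusted p = 0.409). The groups did not overlap for 1 gene higher in ONC (Slc30a9, with 20.7% of all genes tested) and 1 lower (Slc30a7, with 15.8% of all genes).

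All 6 intervals of ONC/Ctrl lay within a 1.5-fold change in either direction (0.585 on the log2 scale), as did those of 76.2% of all genes tested. Slc30a7 only just did so, and under alternatives its interval reached past this bound in 9 of 15, among them quantile normalization (-0.36, interval -0.74 to 0.02). The intervals of Slc30a1, Slc30a4, Slc30a5 and Slc30a9 lay within it in 16 of 16 alternatives in each comparison. The median size of the log2 fold change in ONC/Ctrl, taken without its sign, was 0.067 for the SLC30 genes and 0.13 for all genes. It was 0.133 and 0.103 in TPEN/ONC, and 0.117 and 0.116 in TPEN/Ctrl. In TPEN/ONC, 5 of 6 intervals lay within a 1.5-fold change, beside 80.7% of all genes. In TPEN/Ctrl, 6 of 6 did so, beside 77.7%. These intervals bound the change at the level of the sorted mixture, and a p above the threshold does not show that the levels were equal.

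Chelation after crush also went with no called change. In TPEN/ONC, 0 of 6 were called by limma, 0 at an unadjusted p of 0.05 and 0 by voom. Of all 13566 genes, limma called 7.39%, voom called 1688, and 22% had an unadjusted p under 0.05 in limma. Slc30a1 changed by 0.12 (standard error 0.08, interval -0.07 to 0.30, limma adjusted p = 0.456), and by 0.05 without ONC library 2. Slc30a4, the gene whose TPEN libraries stood above all ONC libraries, changed by 0.15 (-0.01 to 0.31, limma adjusted p = 0.261), and 12.5% of all genes were higher without overlap in this comparison. Among the 6 genes, 0 were lower without overlap, against 15.6% of all genes. Slc30a9 changed by 0.04 (-0.05 to 0.13, limma adjusted p = 0.584) and Slc30a5 by -0.03 (-0.14 to 0.07, limma adjusted p = 0.718).

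Slc30a6 had the lowest estimate in TPEN/ONC, -0.31 (standard error 0.14, interval -0.62 to 0.0034, limma adjusted p = 0.2325). In this fit, it was the only interval of 18 that reached past a 1.5-fold change. The Slc30a6 interval also did so in 14 of 16 alternatives in TPEN/ONC, and in 4 of 16 in TPEN/Ctrl. The TPEN/ONC estimate was -0.18 without TPEN library 1, whose Slc30a6 value was the lowest of the 9. Slc30a7 changed by 0.21 (-0.16 to 0.57, limma adjusted p = 0.507), and by 0.05 without TPEN library 1, where its level was highest. Its interval reached past a 1.5-fold change in 11 of 15 alternatives.

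In TPEN/Ctrl, crush and chelation differ, and possibly the injection. Here 0 of 6 were called by limma and 0 by voom, where limma called 13.4% of all 13566 genes and voom 2375. Slc30a9 was the 1 SLC30 gene with an unadjusted p under 0.05 in limma, beside 27.2% of all genes. Its change was 0.10 (standard error 0.04, interval 0.01 to 0.19, limma adjusted p = 0.130), higher in 3 of 3 TPEN libraries than in any Ctrl library. Slc30a1 changed by 0.18 (interval -0.0037 to 0.36, limma adjusted p = 0.193), or 1.13-fold, and Slc30a4 by 0.13 (-0.03 to 0.29, limma adjusted p = 0.270). These 3 genes were higher in TPEN without overlap, as were 18.1% of all genes, and 0 were lower without overlap, against 13.3% of all genes. Slc30a5 changed by 0.04 (-0.06 to 0.14, limma adjusted p = 0.657), Slc30a6 by -0.19 (-0.51 to 0.12, limma adjusted p = 0.422) and Slc30a7 by -0.0068 (-0.37 to 0.36, limma adjusted p = 0.987). The value of Slc30a6 was -0.07 without TPEN library 1 and -0.31 without TPEN library 3. TPEN/ONC and TPEN/Ctrl share the TPEN libraries, and ONC/Ctrl and TPEN/Ctrl the Ctrl libraries, so their values are not independent.

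**Figure D3:**
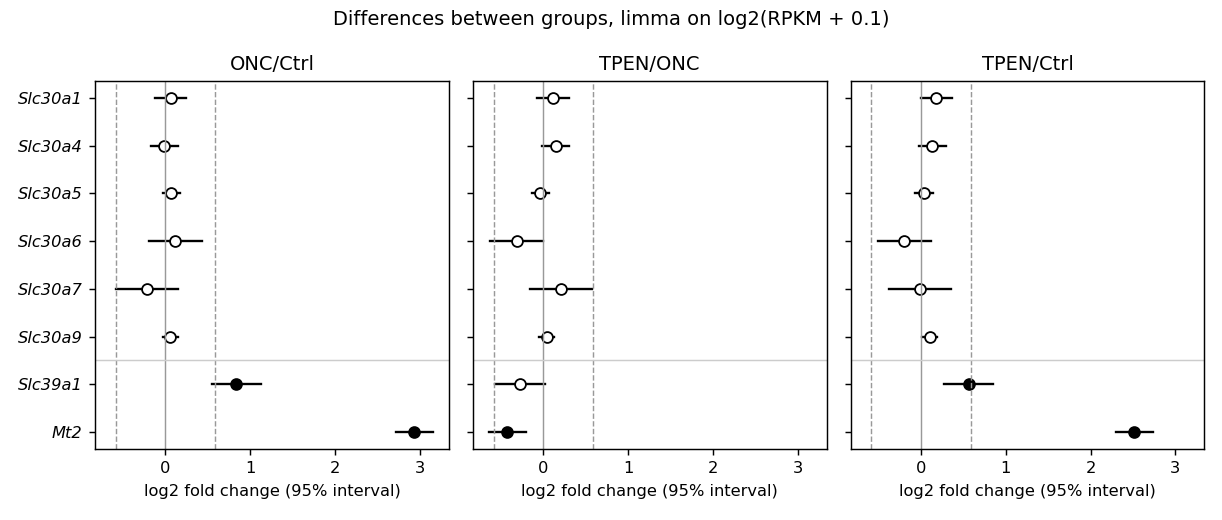
Log2 fold changes on the log2(RPKM + 0.1) scale (horizontal axis) with 95% limma intervals for the 6 SLC30 genes and, below the line, Slc39a1 and Mt2, in ONC/Ctrl, TPEN/ONC and TPEN/Ctrl. Filled points have a limma adjusted p under 0.05, and dashed lines mark a 1.5-fold change; all SLC30 points are open, while Mt2 lies at 2.94 in ONC/Ctrl.

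Of 5 genes listed for zinc buffering and sensing, 4 were tested, and limma called Mt1, Mt2 and Mt3 higher in both ONC/Ctrl and TPEN/Ctrl, while voom called 2 genes in each. No test compared this list with the SLC30 genes. Of all 13566 genes tested, limma called 18.7% in ONC/Ctrl and 13.4% in TPEN/Ctrl, and voom called 3214 and 2375. Mt2, a metallothionein, averaged 1.74 ± 0.0736 RPKM for Ctrl, 14.0 ± 0.902 RPKM for ONC and 10.4 ± 1.49 RPKM for TPEN (SD, n = 3). It ranged from 1.69 to 1.82 RPKM in Ctrl, from 12.9 to 14.7 RPKM in ONC and from 9.21 to 12.1 RPKM in TPEN, with no overlap. Mt2 had only 20 reads in its lowest library, a Ctrl one, so its small Ctrl SD understates counting error. The change of Mt2 was 2.94 in ONC/Ctrl, or 7.66-fold (limma adjusted p = 3.8e-08, standard error 0.10). In TPEN/ONC it was -0.42 (standard error 0.10, limma adjusted p = 0.0289), a call lost in 6 of 16 alternatives, with an adjusted p of up to 0.103. The sums of microglia, macrophage and astrocyte markers given above moved in the same directions. The part of these cells, or of Müller glia, in the Mt2 values was not tested.

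Mt1 had log2 fold changes of 1.64 in ONC/Ctrl (limma adjusted p = 0.00376) and 1.32 in TPEN/Ctrl (limma adjusted p = 0.0165), the latter lost without TPEN library 1 or 2. Mt3, a metallothionein of neurons and glia, changed by 0.89 (limma adjusted p = 0.0465) and 0.98 (limma adjusted p = 0.0398), and these calls were lost in 11 and 10 of 15 alternatives. The lowest library had 20 reads for Mt1 and 6 for Mt3. Mtf1, the gene of the zinc sensor, was not called in any comparison (limma adjusted p = 0.893 in ONC/Ctrl, 0.854 in TPEN/ONC and 0.942 in TPEN/Ctrl).

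The ratio of Mt2 to Slc30a1 within a library put the 2 MTF1 targets side by side. It was 0.409 ± 0.00837 for Ctrl, 3.17 ± 0.493 for ONC and 2.16 ± 0.260 for TPEN (SD, n = 3). The Ctrl SD understates counting error, as Mt2 had 20 reads in its lowest library. The ratio was chosen after the values of both genes were seen and is a description with no test.

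**Figure D4:**
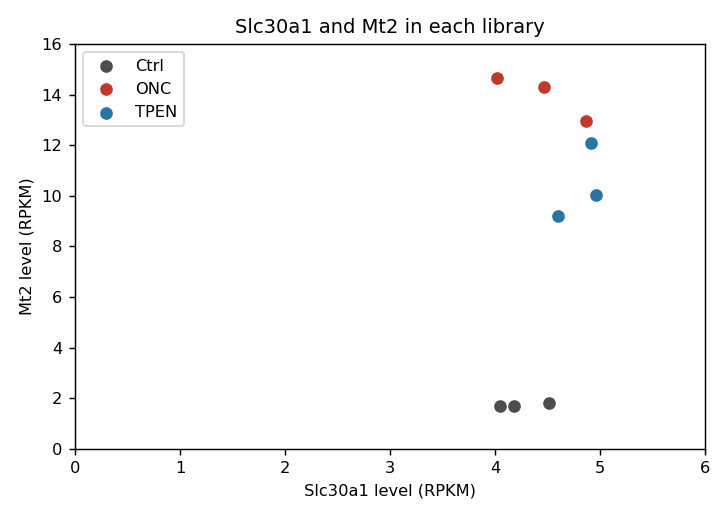
Mt2 RPKM (vertical axis) against Slc30a1 RPKM (horizontal axis) in each library, coloured by group. Mt2 separates Ctrl (1.69 to 1.82) from ONC (12.9 to 14.7) and TPEN (9.21 to 12.1), while Slc30a1 stays between 4.02 and 4.96 in all 9 libraries.

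Of 14 importers of the SLC39 family, which carry zinc into the cytosol, 10 were listed and tested. In ONC/Ctrl, 1 was called higher and 1 lower, beside 18.7% of all genes called, and in TPEN/Ctrl 1 was called higher, beside 13.4% of all genes. In TPEN/ONC, 0 were called by limma, 0 by voom and 2 at an unadjusted p of 0.05. Of all 13566 genes in this comparison, limma called 7.39%, voom called 1688, and 22% had an unadjusted p under 0.05. Slc39a1, which encodes the plasma membrane importer ZIP1, measured 1.49, 2.09 and 1.60 RPKM in Ctrl libraries 1 to 3, 3.07, 3.48 and 2.85 RPKM in the ONC libraries, and 2.69, 2.59 and 2.44 RPKM in the TPEN libraries. All ONC and TPEN libraries were above all Ctrl libraries, as were the summed markers of microglia, macrophages and astrocytes. The part of these cells, or of Müller glia, in this was not tested. The change of Slc39a1 was 0.83 in ONC/Ctrl (limma adjusted p = 0.00151, standard error 0.13). It was 0.56 in TPEN/Ctrl (limma adjusted p = 0.0186), a call lost in 4 of 16 alternatives. Slc39a3, another importer of the plasma membrane, changed by -0.25 in ONC/Ctrl (limma adjusted p = 0.0360), a call lost in 6 of 16 alternatives. The median log2 fold change of the importers was 0.02 in ONC/Ctrl and that of the SLC30 genes 0.06, beside 0.017 for all genes.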

How the data were processed

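Per the labels and the study's methods, stranded mRNA libraries with molecular identifiers were trimmed (Trimmomatic 0.36) and mapped with STAR to GRCm38/mm10. The counting program, annotation, use of strand and collapsing of identifiers are not given in the sources used here. The authors deposited RPKM values for 15228 genes. The deposited log2 fold changes and p-values of the authors' own comparisons were not used. RPKM multiplied by exon length was divided by its value for 1 read in that library. This gave whole reads (100% within 0.01), which served for voom. The value for 1 read was inferred from the smallest product of each library, taken as 1 or 2 reads. The library depths were inferred from it too. The floor of 3 reads was 0.130 to 0.150 RPM and, like the counting errors, covers counting only. Differences were tested with limma 3.58.1 (R 4.3.3), two-sided with a variance trend, on log2(RPKM + 0.1) of the 13566 genes that averaged 0.5 RPKM or more, in a fit of all 9 libraries, with Benjamini-Hochberg adjustment over all genes. The pseudocount understates changes of low genes. The test was checked on simulated data. Promoters came from RefSeq (GRCm38.p6) and transcripts from GENCODE M21. Named genes were all SLC30 genes and called genes of the other lists. Members and lists were chosen with earlier results of these data known. A planned search of protein sequences was not run.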

Additional observations from a re-analysis of the deposited data

How the results depend on the processing

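There were 16 alternatives (another normalization, filter, pseudocount, a replicate block, voom on whole reads, the compared libraries alone, and each of 9 libraries left out). Under all of them, 0 SLC30 genes were called in ONC/Ctrl, TPEN/ONC or TPEN/Ctrl. The smallest adjusted p was 0.0632, from voom for Slc30a9 in TPEN/Ctrl. Slc30a7 was not tested with a minimum mean of 1 RPKM. Of 285 fold changes, 278 kept their direction and 7 near 0 turned. Many of the 285 could not turn. The fold change stays the same with another filter, the replicate block or the compared libraries alone. It also stays the same when the library left out belongs to the group not compared. Single libraries moved the values of Slc30a6 and Slc30a7 most, from -0.42 to -0.18 for Slc30a6 and from 0.05 to 0.29 for Slc30a7 in TPEN/ONC. Slc30a7 in TPEN/Ctrl was 0.00060 with a pseudocount of 1 RPKM and ran from -0.17 to 0.076 with single libraries left out (0.045 without Ctrl library 1, 0.071 and 0.076 without TPEN library 2 or 3). Slc30a1 in ONC/Ctrl ran from -0.0016 (without ONC library 1) to 0.13, and Slc30a4 in ONC/Ctrl from -0.054 to 0.013 (without Ctrl library 2; 0.012 without ONC library 2). The cause was not tested. Of all genes, 1002 were called in TPEN/ONC, 1688 with voom, and 536 (without ONC library 1) to 1151 (without Ctrl library 3) with single libraries left out, with 544, 599, 641 and 563 without ONC library 2 or 3 or TPEN library 1 or 3. Libraries with the same number did not deviate together (correlations of -0.0623 to 0.0268), so the numbers were not taken as pairs. With the replicate block, 2224 genes were called in ONC/Ctrl, 701 in TPEN/ONC and 1464 in TPEN/Ctrl, beside 2536, 1002 and 1814 without it. Depth limited Slc30a6, with 42 reads in its lowest library, and the other SLC30 genes less.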

Other observations

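Zinc enzymes that mature in the secretory pathway, where Slc30a5, Slc30a6 and Slc30a7 act, were also examined. Of 13 listed, 8 were tested. In ONC/Ctrl, 1 was called higher and 2 lower, in TPEN/ONC 1 lower and in TPEN/Ctrl 3 lower, beside 18.7%, 7.39% and 13.4% of all genes called in either direction. Car14, a membrane carbonic anhydrase, had log2 fold changes of -0.46 in ONC/Ctrl (limma adjusted p = 0.00365) and -0.46 in TPEN/Ctrl (limma adjusted p = 0.00545). Smpd1, the acid sphingomyelinase, changed by -0.38 (limma adjusted p = 0.00224) and -0.35 (limma adjusted p = 0.00470), and Mmp2, a matrix metalloproteinase, by 0.33 in ONC/Ctrl (limma adjusted p = 0.00588). Alpl, the tissue-nonspecific alkaline phosphatase, was called lower in TPEN/Ctrl (-0.16, limma adjusted p = 0.00790) and in TPEN/ONC (-0.14, limma adjusted p = 0.0329), the latter lost in 8 of 16 alternatives.

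Of 13 genes of synaptic vesicles and the AP-3 adaptor, which sorts ZnT3 to these vesicles, 12 were tested, with 4 higher and 1 lower in TPEN/ONC and 2 higher and 1 lower in TPEN/Ctrl, beside 7.39% and 13.4% of all genes called. In ONC/Ctrl, 0 were called by limma, 3 by voom and 4 at an unadjusted p of 0.05. Of all 13566 genes tested there, limma called 18.7%, voom called 3214, and 31.6% had an unadjusted p under 0.05. Sv2a, a synaptic vesicle glycoprotein, had log2 fold changes of 0.27 in TPEN/ONC (limma adjusted p = 0.00355) and 0.20 in TPEN/Ctrl (limma adjusted p = 0.00979). Slc32a1, the vesicular transporter of GABA and glycine and an amacrine marker, changed by 0.56 (limma adjusted p = 0.0433, lost in 10 of 16 alternatives) and 0.58 (limma adjusted p = 0.0247, lost in 7 of 16). Summed amacrine markers, Slc32a1 among them, were 32.7 to 34.7 RPKM in Ctrl, 28.2 to 29.1 in ONC and 33.3 to 35.3 in TPEN. Slc6a9 carried most of this sum (means of 23.1, 18.2 and 21.4 RPKM), and 3 of 7 markers averaged under 0.5 RPKM. Tfap2b went the other way (1.83, 2.07 and 1.65 RPKM). Of 4 amacrine markers tested, limma called 0 higher and 1 lower in ONC/Ctrl, beside 18.7% of all genes. In TPEN/ONC it called 3 higher and 0 lower, beside 7.39%. Summed cone markers were 123 to 130 RPKM in Ctrl, 106 to 115 in ONC and 190 to 193 in TPEN, with 5 of 5 called higher in both TPEN/ONC and TPEN/Ctrl. The part of either list in these values was not tested. The TPEN/ONC calls of Ap3m2 (0.20), Vamp2 (0.16) and Ap3d1 (-0.12) were lost in 4, 9 and 11 of 16 alternatives, and that of Slc17a7 in TPEN/Ctrl (-0.14) in 9.

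Of 6 genes of manganese handling, 4 were tested. Limma called 1 higher in ONC/Ctrl, 0 in TPEN/ONC, and 1 higher and 1 lower in TPEN/Ctrl. Of all genes it called 18.7%, 7.39% and 13.4% in either direction. Tmem165, which encodes a Golgi transporter, was higher in ONC/Ctrl (0.54, limma adjusted p = 0.000419) and TPEN/Ctrl (0.51, limma adjusted p = 0.000900). Atp2c1, the Golgi calcium and manganese pump, was lower in TPEN/Ctrl (-0.16, limma adjusted p = 0.0475), a call lost in 11 of 16 alternatives.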
